A study of Mus musculus with 6 samples.

Results

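The genes examined were 10 SOX transcription factor genes of the glial lineage, chosen by name from the SoxB group (Sox2, Sox3), the SoxC group (Sox4, Sox11), the SoxD group (Sox5, Sox6, Sox13) and the SoxE group (Sox8, Sox9, Sox10), out of 19321 annotated genes on the array. The probe annotation named 1 probe for each of 9 of them and none for Sox2, so Sox2 is not analysed here. All 9 probes lay above the detection limit (the mean of the blank spots plus 2 SD) on all 6 arrays and were tested. RNA came from oligodendrocyte precursor cells of E15.5 forebrains of Jcl:ICR mice, which were cultured with FGF2 and PDGF-AA in both groups and harvested 3 days after infection. The 3 control samples had received a control retrovirus and the 3 knockdown samples a retrovirus against Chd7, a gene for an ATP-dependent chromatin remodeller. Each sample had its own one-colour array. The knockdown sequence and the share of infected cells are not given in the sources used here. Nor do they state that replicates are separate cultures. The p-values thus reflect only the scatter among these samples, which may be technical.

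SOX proteins bind the minor groove of DNA through an HMG box and bend it, and they act mostly with partner transcription factors. In the oligodendrocyte lineage, SoxB proteins are known from neural stem and precursor cells, SoxC proteins from progenitors and young neurons, and SoxD proteins as factors that hold precursors back from early differentiation. Among the SoxE proteins, Sox9 is known for glial specification and Sox10 for precursor identity and the later activation of myelin genes, with Sox8 as a partly redundant relative. The study behind these arrays is known for describing Chd7 as a partner of Sox2 in these cells.

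Upstream sequence from RefSeq (GRCm38.p6) was listed for 7 of the 10 genes, among them both SoxC genes, which are printed here because they read differently on the arrays. Each stretch holds the 250 bases before the annotated start, 5′ to 3′ on the minus strand (chr13:28953700-28953949 for Sox4 and chr12:27342719-27342968 for Sox11), with the palindromic E-box CAGCTG, a motif bound by basic helix-loop-helix factors, in capitals.
Sox4: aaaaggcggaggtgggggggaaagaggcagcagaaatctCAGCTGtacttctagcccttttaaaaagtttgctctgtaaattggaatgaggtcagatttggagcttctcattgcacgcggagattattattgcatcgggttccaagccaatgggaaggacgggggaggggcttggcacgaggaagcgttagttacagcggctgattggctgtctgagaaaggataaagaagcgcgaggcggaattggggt
Sox11: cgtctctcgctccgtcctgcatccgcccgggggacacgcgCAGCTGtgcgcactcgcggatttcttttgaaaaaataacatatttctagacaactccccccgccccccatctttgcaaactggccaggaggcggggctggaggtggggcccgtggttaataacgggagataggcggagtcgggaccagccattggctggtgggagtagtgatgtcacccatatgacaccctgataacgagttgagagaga
Each sequence held the E-box once, beginning at -211 in Sox4 and at -210 in Sox11 relative to the start, and 13% of all 32851 listed upstream sequences of this length held it. The SOX core motif ACAANG, searched on both strands, was in neither stretch, and 36.3% of all sequences had it. The Sox4 stretch had 50.8% GC and 11 CpG, and that of Sox11 had 58.0% and 17, against medians of 52.4% and 6 over all sequences. Of 12 upstream sequences of the 7 listed genes, of which Sox6 alone had 6, 7 held the SOX core motif and 3 the E-box. A match to these letters is a description of the sequence and not a binding site.

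Sequence aside, the arrays had a median raw signal of 83.4 to 89.4 against a blank mean of 58.9 to 61.9, and 87.0% to 89.8% of probes passed the limit. Precision is limited by how few arrays there are. Chd7 was lower on every knockdown array (8.54, 8.44 and 8.48 on the log2 intensity scale) than on every control array (9.44, 9.20 and 9.47), or 54.3% of the control level (log2 fold change -0.88, SE 0.0855, adjusted p = 0.0011 in limma). Its other, dimmer probe gave -0.48 (SE 0.0676, adjusted p = 0.00403 over probes), and the mean of both -0.68. The defining precursor genes Olig1, Olig2, Pdgfra and Cspg4 were above the limit on all 6 arrays. So were all listed markers on the array for astrocytes (8), neurons (8) and differentiating oligodendrocytes (7). Passing the limit therefore does not tell these cell types apart.

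Of the 9 SOX genes tested, 3 fell in the knockdown: Sox4, Sox9 and Sox10. None rose in limma, also at an unadjusted p below 0.05, where 5 were lower. Over all 17422 genes tested, 9.61% passed an adjusted p below 0.05, 5.11% as lower and 4.51% as higher in the knockdown. The remaining 6 did not pass, with log2 fold changes from -0.25 for Sox6 to 0.11 for Sox11. The median log2 fold change of the 9 genes was -0.13, against 0.0013 over all genes tested. These genes were chosen with earlier results of these data known, so no count or median of them is independent evidence of a direction. For 5 of the 9 genes each knockdown array read below each control array, a pattern seen for 15.2% of all tested genes (29.8% in either direction, 14.6% higher), and in the other 4 the groups overlapped.

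**Figure D1:**
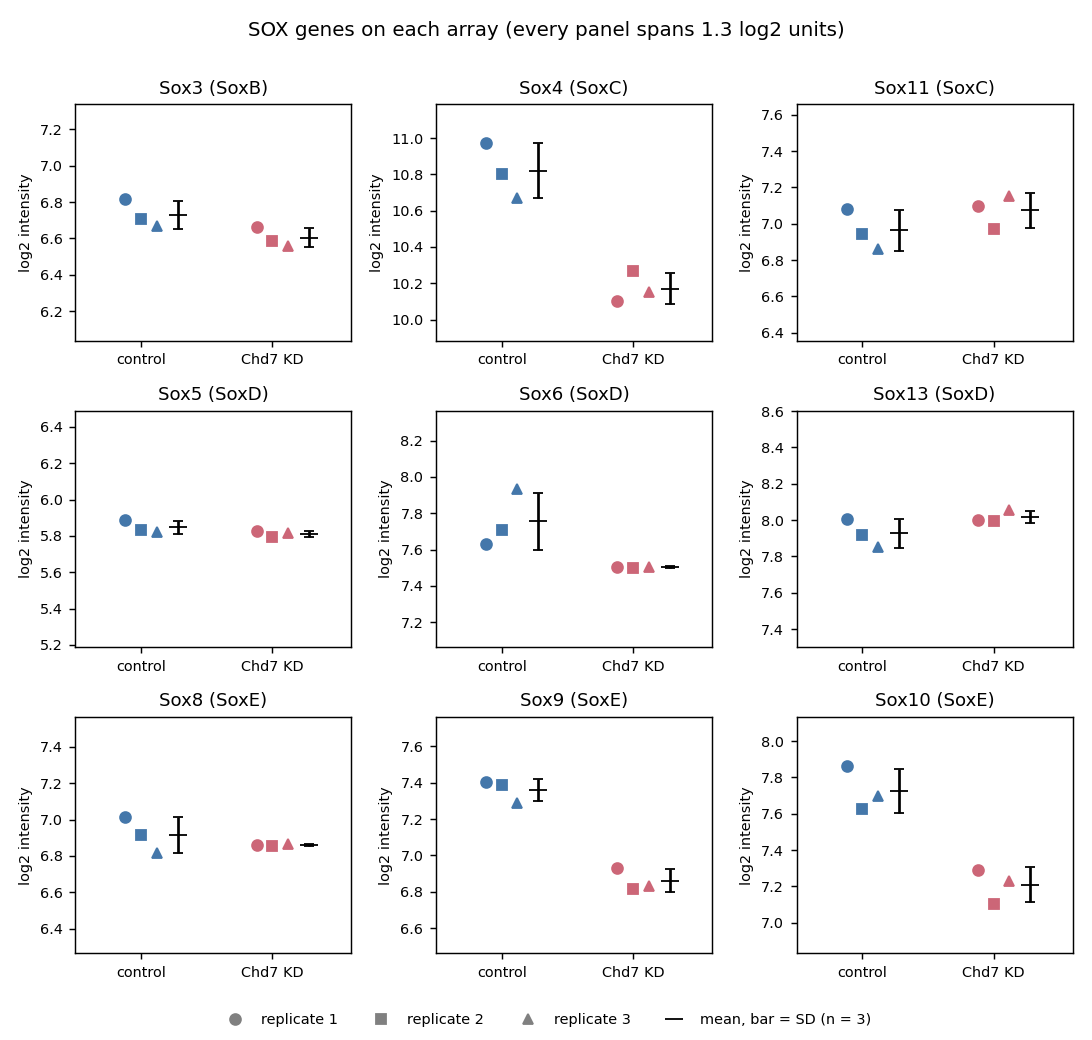
Normalized log2 intensity of each SOX gene on each array, with control arrays in blue, Chd7 knockdown (KD) arrays in red, one symbol shape per replicate number, and group means with SD (n = 3). Every panel spans 1.3 log2 units, so gaps are drawn to the same scale. The offset shrinks gaps of dim genes, so gaps can be compared only between genes of similar level. Levels cannot be compared between panels. The groups are far apart for Sox4, Sox9 and Sox10, narrowly apart for Sox3 and Sox6, and overlap for Sox5, Sox8, Sox11 and Sox13.

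In the SoxC group, Sox4 encodes an activator active in progenitors and young neurons. It read 10.97, 10.80 and 10.67 on control arrays 1, 2 and 3 and 10.10, 10.27 and 10.15 on knockdown arrays 1, 2 and 3, as log2 intensity, and all values by array below follow this order. The lowest control array was above the highest knockdown array, and control replicate 1 stood highest of all. The group means were 10.82 ± 0.15 and 10.17 ± 0.084 (SD, n = 3 each). The log2 fold change was thus -0.64 (SE 0.0923, adjusted p = 0.0044 in limma), which corresponds to 64.1% of the control level. Between arrays of the same number the difference was -0.87, -0.54 and -0.52. The first of these was thus larger than the other differences, and without both arrays numbered 1 the value was -0.53 (adjusted p = 0.0216).

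Sox11, the closely related SoxC gene whose product shares many targets with Sox4, did not pass. It read 7.08, 6.95 and 6.86 on the control arrays against 7.10, 6.97 and 7.15 on the knockdown arrays, and the groups overlapped. Its log2 fold change was 0.11 (SE 0.0715, adjusted p = 0.399). The difference between the log2 values of Sox4 and Sox11 on the same array was 3.81 to 3.89 in the controls and 3.0 to 3.30 in the knockdown, where only its change, not its size, carries meaning because the probes differ. This change was -0.75, with no overlap between groups (exact permutation test, two-sided, p = 0.1, adjusted p = 0.117 over 7 pairs). With 3 arrays against 3, 0.1 is the smallest p the test can give. Sox4 and Sox11 lie at different levels, and the offset shrinks changes of dim genes, so the size of this change depends on the scale. On the authors' values it was -0.86 (exact permutation p = 0.1, two-sided).

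In the SoxE group, Sox9, the factor of glial specification, read 7.41, 7.39 and 7.29 on the control arrays against 6.93, 6.82 and 6.83 on the knockdown arrays. The gap between the groups was wider than the spread within either. The means were 7.36 ± 0.062 and 6.86 ± 0.063 (SD, n = 3 each). The log2 fold change was thus -0.50 (SE 0.057, adjusted p = 0.0018 in limma). On this scale, where the offset of 50 shrinks changes of dim genes, the knockdown level was 70.7% of that in the controls. In the authors' processed values, used with a pseudocount of 1 in place of the offset of 50, Sox9 was 91, 89 and 82 on the control arrays against 55, 46 and 46 on the knockdown arrays. The log2 fold change was then -0.82 (SE 0.0942, adjusted p = 0.00995), so the size of this fall differed between the processed and the scanner values while its direction was the same.

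Sox10, the SoxE factor of precursor identity, read 7.86, 7.62 and 7.70 on the control arrays against 7.29, 7.10 and 7.23 on the knockdown arrays. Again each knockdown array was below each control array. The means were 7.73 ± 0.12 and 7.21 ± 0.097 (SD, n = 3 each). The log2 fold change was thus -0.52 (SE 0.0774, adjusted p = 0.00489). On this scale, where the offset shrinks changes of dim genes, the knockdown level was 69.8% of that in the controls. In the authors' values Sox10 was 139, 112 and 123 on the control arrays against 82, 64 and 72 on the knockdown arrays (log2 fold change -0.77, SE 0.12, adjusted p = 0.0191). Differences between arrays of the same number were -0.57, -0.52 and -0.47 for Sox10 and -0.47, -0.57 and -0.46 for Sox9, so every pairing by number gave a lower value for both genes.

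Sox8, the partly redundant SoxE gene, read 7.01, 6.92 and 6.82 in the controls. In the knockdown it read 6.86, 6.86 and 6.86, inside the range of the controls. Its log2 fold change was -0.05 (SE 0.0572, adjusted p = 0.619). Sox8 changed least of the SoxE genes. Its log2 fold change was less negative than that of Sox9 by 0.45 and than that of Sox10 by 0.46. The groups did not overlap in either difference (exact permutation p = 0.1 each, two-sided, adjusted p = 0.117). For Sox9 against Sox10 the difference in change was 0.02, and the groups overlapped (exact permutation p = 0.8, two-sided). On the authors' values the 3 differences were 0.72, 0.67 and -0.05.

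**Figure D2:**
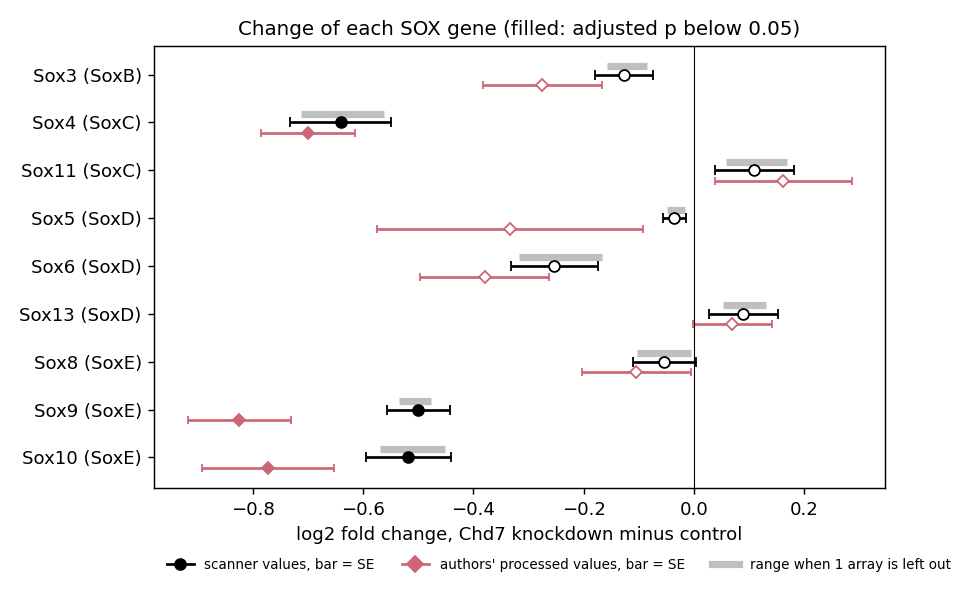
Log2 fold change (knockdown minus control) of each SOX gene on the scanner values (black circles, bar = SE) and on the authors' processed values (red diamonds, bar = SE), with a grey bar for the range over the 6 fits that each leave out 1 array. Filled symbols passed an adjusted p below 0.05. Sox4, Sox9 and Sox10 are filled on both scales, at -0.64, -0.50 and -0.52 on the scanner values and -0.70, -0.82 and -0.77 on the authors' values, and all other symbols are open.

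In the SoxD group, whose proteins lack an activation domain of their own and can oppose SoxE proteins at shared sites, no gene passed. Sox6 read 7.63, 7.71 and 7.93 on the control arrays against 7.51, 7.5 and 7.51 on the knockdown arrays. Control replicate 3 stood highest, the knockdown arrays lay within a narrow band, and the groups did not overlap. Its log2 fold change was -0.25 (SE 0.0788, adjusted p = 0.0778). With the replicate number as a block it passed (SE 0.0686, adjusted p = 0.0372), as it did without control replicate 1 (-0.32, adjusted p = 0.0385). Without control replicate 3 the value was -0.17 (adjusted p = 0.149).

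Sox13, a less studied SoxD gene, read 8.01, 7.92 and 7.85 on the control arrays against 8.0, 7.99 and 8.05 on the knockdown arrays, so the groups overlapped (log2 fold change 0.09, SE 0.0628, adjusted p = 0.431). Sox5, which acts with Sox6 in precursors, read 5.89, 5.83 and 5.82 on the control arrays against 5.83, 5.79 and 5.82 on the knockdown arrays. These values are near the floor: the raw signal of Sox5 was 63.4 to 66.2, against limits of 60.6 to 64.0, so a change would be hard to see with this probe. Its log2 fold change was -0.04 (SE 0.0205, adjusted p = 0.336), and -0.33 (SE 0.242, adjusted p = 0.481) in the authors' values, where it stood at 2 to 5. Differences in change within the group were 0.22 for Sox5 against Sox6, -0.13 for Sox5 against Sox13 and -0.34 for Sox6 against Sox13 (exact permutation p = 0.1 each, two-sided, adjusted p = 0.117). On the authors' values these were 0.05, -0.40 and -0.45 (exact permutation p = 0.9, 0.2 and 0.1), and after median scaling 0.23, -0.12 and -0.34 (exact permutation p = 0.3, 0.2 and 0.1).

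In the SoxB group, Sox3, which acts alongside Sox2 in neural progenitors, was the measured gene. It read 6.82, 6.71 and 6.67 on the control arrays against 6.66, 6.59 and 6.56 on the knockdown arrays. The groups lay side by side, with the highest knockdown array just under the lowest control array. The log2 fold change was -0.13 (SE 0.0522, adjusted p = 0.172), and it did not pass with the replicate number as a block (adjusted p = 0.0792). Sox2ot, a long transcript that overlaps the Sox2 locus and is no measure of Sox2 itself, read 5.77 ± 0.018 and 5.76 ± 0.0057 (SD, n = 3 each; adjusted p = 0.833), near the floor.

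The arrays fell into sets by the slope between scanner gains in the file headers, 0.464 to 0.467 for control replicates 1 and 2 with knockdown replicate 2, and 0.478 to 0.479 for control replicate 3 with knockdown replicates 1 and 3. Within the lower and the higher set the log2 fold change was -0.62 and -0.54 for Sox4, -0.58 and -0.41 for Sox9, and -0.64 and -0.43 for Sox10. Each set compares 2 arrays with 1, with the lone array assumed to vary like the others, and none of the 9 genes passed in limma there (adjusted p of these 3 genes 0.0882 to 0.183). At an unadjusted p below 0.05, 3 were lower in the lower set, and 4 were lower and 1 higher in the higher set. With the set as a block, Sox4, Sox9 and Sox10 passed (adjusted p = 0.00862, 0.00693 and 0.0118).

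Profiles over the 6 arrays, each centred on its own mean, were compared by root mean square difference over all tested genes. Nearest to Sox10 were Cenpq, a kinetochore gene, at 0.0452 log2 units, Myt1, a zinc finger transcription factor gene of precursors, at 0.0537, and Cep83, a centriole gene, at 0.0559. Nearest to Sox9 were Rwdd2b (0.0372), Erg28 (0.0483) and Strn3 (0.0498). Nearest to Sox4 were Cop1, a ubiquitin ligase gene, at 0.059, Luzp2 (0.0639) and Lmnb1, the gene of lamin B1, at 0.0676. All 9 neighbours had passed lower in the same comparison, with log2 fold changes of -0.43 to -0.69. This follows from choosing them by their profiles on these same arrays and is no separate result.

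Of the other 10 SOX genes on the array, 7 were tested, and none passed in limma, with 1 lower and 0 higher at an unadjusted p below 0.05. Sox1, the remaining SoxB1 gene, read -0.21 (log2 fold change, adjusted p = 0.0771), with no overlap between groups. It was the only 1 of the 7 lower without overlap, a pattern seen for 15.2% of all tested genes. Sox15, Sox18 and the SoxC gene Sox12 read 0.08, 0.01 and -0.04. Sox14, Sox17 and Sry did not reach the detection rule.

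Genes that SoxE proteins are known to act on in glia gave 2 lower and 1 higher among 14 tested, with a median log2 fold change of -0.02. Over all genes tested, 5.11% passed as lower and 4.51% as higher. The linked and marker lists were chosen with earlier results of these data known, so no count from them is independent evidence of a direction. Pdgfra, which encodes the PDGF-AA receptor of precursors, is a gene that depends on SoxE and SoxD proteins. It was 10.65, 10.37 and 10.61 on the control arrays against 9.27, 9.04 and 9.23 on the knockdown arrays. Its log2 fold change was -1.36 (SE 0.0981, adjusted p = 4.07e-04). Cspg4, the NG2 proteoglycan gene, fell by 0.48 on the log2 scale (adjusted p = 6.83e-04). Nfatc3, a calcineurin-regulated factor that acts with Sox10 in differentiation, rose by 0.23. This call was lost in the authors' values (0.0902) and in 4 of the 6 fits with 1 array left out, namely control replicate 2 or 3 or knockdown replicate 1 or 2 (adjusted p up to 0.118). Nfia, a partner induced by Sox9, read -0.04 near the floor (adjusted p = 0.149), and the myelin genes Mbp and Mag, targets of Sox10 with Myrf, read 0.17 (SE 0.292) and -0.0037 (SE 0.158).

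Genes of transcriptional regulators linked to SOX proteins in this lineage, inhibitors among them, had 6 of 15 tested lower and none higher. At an unadjusted p below 0.05, 0 were higher and 8 lower, and the median was -0.19. Over all genes tested, 5.11% passed as lower and 4.51% as higher. This list, too, was chosen with earlier results of these data known. On the scanner values, where the offset shrinks changes of dim genes, the largest fall among them was in Hes5, a Notch effector (-0.78, adjusted p = 0.00307). Id2, an inhibitor of basic helix-loop-helix factors, came next (-0.74, adjusted p = 0.0108), and then Myt1 (-0.53, adjusted p = 6.94e-04). This order was not kept on the authors' values, where Myt1 (-1.26) fell by more than Hes5 (-0.97) and Id2 (-0.82). Olig2, the factor that drives Sox10 expression in the lineage, fell by 0.35. It missed the threshold when knockdown replicate 2 or 3 was left out (adjusted p up to 0.068), when both arrays numbered 1 were (0.0522), on the authors' values (0.0515) and after median scaling (0.0992). Zfp488 and Prrx1, both near the floor, read -0.09 and -0.08. Neither passed on the authors' values (0.0712 and 0.0585), without the variance trend (0.0504 and 0.0927) or without both arrays numbered 1 (0.0622 and 0.121). Prrx1 also did not with the gain set as a block (0.0584), or without control replicate 2 or any 1 knockdown array (up to 0.0968). With the replicate block 9 were lower, the added genes being Olig1 (-0.24, adjusted p = 0.0379), Nkx2-2 (-0.20, adjusted p = 0.0278) and Id4 (-0.36, adjusted p = 0.0107).

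**Figure D3:**
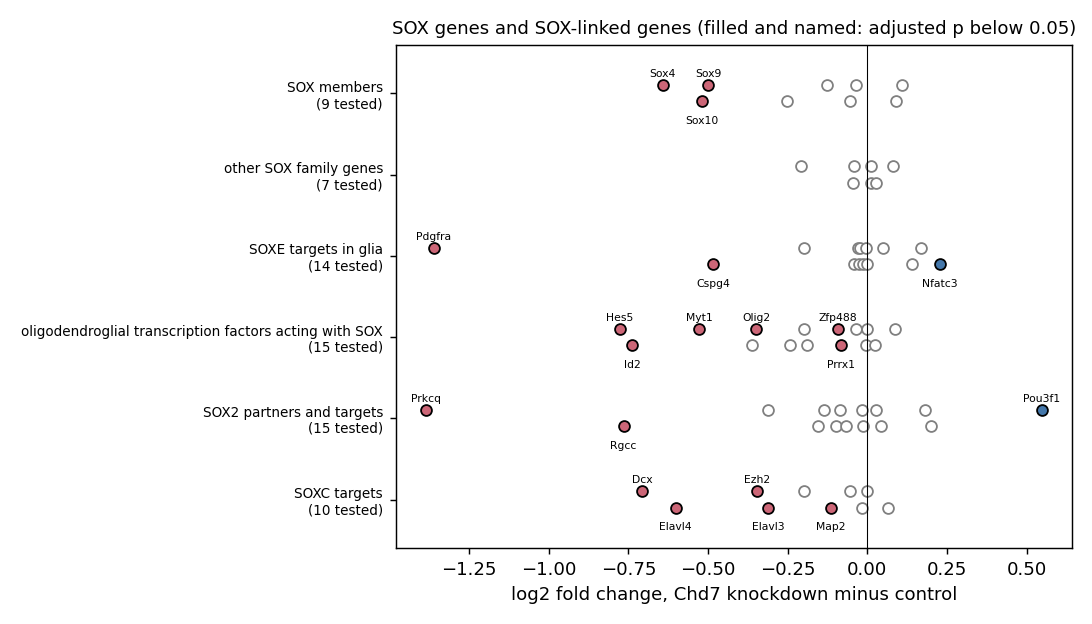
Log2 fold change (knockdown minus control) of the 9 tested SOX genes and of each gene in 5 lists of SOX-linked genes, 1 point a gene. Filled and named points passed an adjusted p below 0.05, red for lower and blue for higher. Of the linked genes, 15 are red and 2, Nfatc3 and Pou3f1, are blue.

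Partners and targets of Sox2 gave 2 lower and 1 higher among 15 tested, with a median of -0.07 (over all genes tested, 5.11% lower and 4.51% higher). The lower genes, Prkcq (-1.38, adjusted p = 9.76e-05), a protein kinase C gene, and Rgcc (-0.76, adjusted p = 0.00158), a cell cycle regulator, were chosen by the study on these samples and are not independent evidence of a direction. The other Prkcq probe, a dimmer one, read 0.01. Pou3f1, a POU factor of the kind that pairs with SoxB proteins, rose by 0.55 (adjusted p = 0.0112), but missed the threshold on the authors' values (0.0587) and when both arrays numbered 1 were left out (0.0645). The homeobox gene Lhx2 read -0.31 (adjusted p = 0.066), and with the replicate block this gene was called (adjusted p = 0.0438), for 3 lower.

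Among 10 tested genes known to respond to SoxC proteins, 5 were lower and none higher (0 higher and 5 lower at an unadjusted p below 0.05), with a median of -0.16. Over all genes tested, 5.11% passed as lower and 4.51% as higher. This list, too, was chosen with earlier results of these data known. The neuronal genes Dcx (-0.71, adjusted p = 0.00823) and Elavl4 (-0.60, adjusted p = 0.00149, and -0.46 on its other probe) passed in each fit that left out 1 array. The Polycomb methyltransferase gene Ezh2 (-0.34), the brighter probe of Elavl3 (-0.31) and Map2 (-0.12) passed in fewer fits. Ezh2 missed the threshold when knockdown replicate 1 or 2 was left out (adjusted p up to 0.0639) or after median scaling (0.0742), Elavl3 without any 1 array except knockdown replicate 3 (up to 0.135), and Map2 without any 1 of the 6 arrays (up to 0.171). Without both arrays numbered 1, Ezh2 (0.0541), Elavl3 (0.11) and Map2 (0.158) missed it too. Elavl3 and Map2 also did after median scaling (0.0759 and 0.0945) and with the gain set as a block (0.0648 and 0.07). Map2 further missed it on the authors' values (0.0621) and without the filter on dim probes (0.0571). The other Elavl3 probe gave -0.54 (adjusted p = 0.00975 over probes), and the mean of both -0.43 (adjusted p = 0.0146). With the replicate block the tubulin gene Tubb3 (-0.20, adjusted p = 0.0336) passed too, for 6 lower. Tead2, a Hippo pathway factor known as a direct SoxC target, read -0.0002.

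Cell type markers, also listed with earlier results of these data known, moved as follows beside the SOX genes. Over all genes tested, 5.11% passed as lower and 4.51% as higher. Of 7 tested precursor markers 5 were lower (Pdgfra, Cspg4, Olig2, Lhfpl3 at -0.96 and Cacng4 at -0.52) and none higher (0 higher at an unadjusted p below 0.05). Their summed raw signal above the blank mean, without normalization, was 12430 to 14650 in the controls and 9586 to 11600 in the knockdown. Olig1, which did not pass (adjusted p = 0.246), made up 58.6% to 72.6% of this sum, and the rest was 4761 to 5145 and 2622 to 3394. With the replicate block Olig1 was called too. Of 8 astrocyte markers, a cell type that also expresses Sox9, none passed (1 higher and 1 lower at an unadjusted p below 0.05). With the replicate block Gja1 passed as higher (0.44) and Slc1a2 as lower (-0.47). The sum, 44.1% to 53.2% of it from Aldoc, was 13040 to 14970 and 12930 to 15420. Neuronal markers, relevant to Sox4 and Sox11, had 1 of 8 lower, Dcx, with sums of 563 to 756 and 436 to 604, and of 214 to 304 and 246 to 325 without Dcx. The block added Tubb3 as lower and Syt1 as higher (0.20). Differentiating oligodendrocyte markers had 1 of 7 lower, Bcas1, with sums of 1005 to 1524 and 1007 to 1217, of which Cnp gave 54.2% to 69.0%. The block added Mog (0.24) and Mobp (0.17) as higher. None of 5 tested microglial markers passed (0 in either direction at an unadjusted p below 0.05), with sums of 96.3 to 105 and 96.7 to 123, and 1 further marker, Tmem119, was above the limit on no array. The vascular and fibroblast markers had none of 4 passing (1 higher at an unadjusted p below 0.05) and sums of 20.9 to 28.2 and 23.7 to 34.2, with 2 further genes above the limit on no array. The part of cell composition in the SOX results was not tested, and in these bulk samples fewer cells of a type and less RNA per cell cannot be told apart.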

How the data were processed

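Total RNA of 6 mouse samples was amplified, coupled to Cy5 and hybridised to TORAY arrays, per the labels' protocols. The deposited intensity is each spot's median at 635 nm, with 3 scanner gains combined by a least-squares line, per the file headers. The authors' processed intensity values, deposited as whole numbers with a median of 25 on each array and 1717 to 2016 cells marked null, correlated with the scanner values at 0.99998 or more. How they were made is not stated there. Null was set to 0 and a pseudocount of 1 added before log2.

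Spot intensities (27456 per array, 3982 of them control or empty spots) were corrected with normexp (offset 50, no local background), quantile normalized, and averaged over spots of a probe as log2 values with limma 3.58.1 (R 4.3.3, statmod 1.5.0). The offset shrinks changes of dim genes. A probe was tested if above the blank mean plus 2 SD on at least 3 arrays. Symbols came from the platform annotation (20690 of 23473 probes with 1 symbol, 2783 with none), and a gene was its brightest probe. Groups were compared with lmFit and eBayes with a trend, two-sided, with Benjamini-Hochberg adjustment over 17422 genes. The code was tested on simulated data. Figures used matplotlib 3.10.9.

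The members, 5 linked lists and marker lists were chosen with earlier results of these data known. Named genes were the members, Chd7, of each linked list the up to 4 smallest p and all that passed, and the 3 nearest profiles of each member that passed. Mbp, Mag, Tead2 and the cell type markers given by name, which are those that passed with or without the block or were brightest, were named after their values were seen, and Sox2ot because Sox2 had no probe. Samples that share a replicate number deviated together from their group means (correlations of 0.362, 0.381 and 0.228), each more than with any other number, so the numbers may pair the samples. This is inferred from the data, since the labels do not say what a number marks. Results come from the unblocked fit, and blocked values stand beside a result whose call they change. The exact permutation test also leaves the pairing out. Alternatives were other background, scaling, filter and variance settings, the authors' values, array weights, replicate and gain blocks, and leaving out arrays.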

Additional observations from a re-analysis of the deposited data

How the results depend on the processing

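Sox4, Sox9 and Sox10 passed lower in every alternative run on all arrays, in each fit that left out 1 array and without both arrays numbered 1, but not within a gain set. The number of SOX genes called was 3 or 4 over fits that left out 1 array, and 0 within each gain set, where 3 arrays were fitted. With the replicate number as a block it was 4, Sox6 being the added gene, and the block changed no other call among the 9 SOX genes tested. Signs turned for Sox8 within the higher gain set (0.047), for Sox11 within the lower gain set (-0.045), and for the difference of Sox9 and Sox10 on the authors' values (-0.053). For Chd7 the higher gain set alone gave -0.95 (adjusted p = 0.054) and the lower one -0.88 (0.0966). Genes called over the whole array numbered 1675 (785 higher, 890 lower), and 753 to 1455 with 1 array left out. They numbered 1043 (336 higher, 707 lower) on the authors' values, 2551 with the replicate block, 2687 at an adjusted p below 0.1, and 798 without both arrays numbered 1. Within the higher and lower gain set they numbered 39 and 46. With median scaling they were 1128. The SOX-linked genes called, 17 in all, were 22 (2 higher, 20 lower) with the replicate block, 11 to 16 with 1 array left out, 9 without both arrays numbered 1, and 3 and 2 within the higher and lower gain set. Apart from the fits on fewer arrays and the changed threshold, the cause of these differences was not tested. The dim Sox5 signal limits what its probe can show.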
